A study of Mus musculus with 82 samples.

Results

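The 9 RNAs followed here were Meg3, Rian, Mirg, Neat1, Malat1, Miat, H19, Leng8 and Ccnl1, RNAs listed as retained in the nucleus. The counts come from total RNA, so they do not show where in the cell an RNA was. The 9 were selected on 1 contrast of these data, because several were higher in Mutant than in wild type sciatic nerve 14 days post injury, and were matched by symbol, ignoring case. They make up 9 of the 78308 distinct gene symbols of the series, and each of the 8 count tables lists all 9. Values of the 14-day libraries are therefore given as a description, with no test.

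RNA came from 82 mouse sciatic nerve libraries in 22 groups. Its axons are wrapped by Schwann cells, which make the myelin, and fibroblasts, macrophages, vessels and fat lie around them. Fig4 -/- nerves were set against Fig4 +/+ at postnatal day 12 (P12) and, in a separate table, at P4, with 3 libraries a group. Fig4 encodes a phosphoinositide phosphatase of the endosome and lysosome. At P21 the labels were DhhCre (5 libraries) and Mitf (5), and in a P12 table Egr2Cre (3) and Mitf (3). The Cre names point to recombinase driven from Schwann cell genes. An injury table held 4 uninjured nerves and 4 nerves 3 days post injury, all labelled Mitf. In the time course, wild type and Mutant were each sampled 3, 7 and 14 days post injury, with 3 libraries per group. The last 2 tables held Egr2Cre Mitf and Mitf (3 each), and control (6), Mitf (6), Ndrg1 (5) and Mitf-Ndrg1 (5). Ndrg1 is known as a gene mutated in an inherited neuropathy of myelin. The labels do not say which allele Mutant, Mitf or the Cre labels carry, whether the last 2 tables were injured nerves or what age those animals had, so directions are given by label. Nothing in them ties replicates to separate animals. The p-values therefore cover the spread among libraries, and that spread may be technical.

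Library totals ran from 15438783 to 34531474 estimated counts, and levels are given as CPM, the estimated count scaled to a library total of 1000000. Summed over 10 markers, myelinating Schwann cell RNA reached between 101000 and 223800 CPM in nerves of the P12 and P21 tables, but only between 769 and 13450 CPM in the injured time course, and none of the markers was at 0 in any group. Skeletal muscle markers were uneven. Their sum, over 14 genes, ran from 6.84 to 108400 CPM across libraries and was between 8114 and 108400 CPM in all 6 libraries of the 14-day groups. In whole tissue, fewer cells of a type and less RNA per cell cannot be told apart.

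Meg3, Rian and Mirg are non-coding RNAs of the Dlk1-Dio3 domain, an imprinted region in which they are expressed from the maternal allele while Dlk1, Rtl1 and Dio3 are expressed from the paternal one. H19 is the maternally expressed partner of Igf2 at another imprinted domain. Neat1 is the scaffold of paraspeckles, nuclear bodies that hold certain RNAs and proteins, Malat1 lies in nuclear speckles, where splicing factors collect, and Miat forms a separate nuclear domain. Leng8 and Ccnl1 encode proteins, and Ccnl1 is a cyclin that partners kinases of the splicing machinery. Malat1 and the long form of Neat1 end in a structure other than a poly(A) tail, while the libraries were made with a kit for mRNA, so their levels cover only the molecules that such a kit captures.

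In the GENCODE vM21 annotation of build mm10, Meg3 lies on the plus strand of chromosome 12 from 109541001 to 109571726, Rian from 109603940 to 109661716 and Mirg from 109729764 to 109749460. Neat1 (chromosome 19, 5824708 to 5845478) and Malat1 (chromosome 19, 5795690 to 5802672) are neighbours on the minus strand, and each is covered from end to end by exons. Miat lies on chromosome 5 (112213228 to 112229395, minus strand) and Ccnl1 on chromosome 3 (65946151 to 65958249, minus strand). H19 (142575529 to 142578143, minus strand) and Leng8 (4137039 to 4148177, plus strand) are both on chromosome 7. Of the 2 protein-coding members, Leng8 has 3 of 10 transcripts annotated as intron-retaining and Ccnl1 8 of 14, and 41.5% of all protein-coding genes have at least 1 such transcript. None of the 7 non-coding members has one.

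The start regions of Meg3 and Ccnl1, chosen after the motifs had been searched, are shown because, among the members with a RefSeq promoter window on build GRCm38.p6, both hold an uncommon motif. The windows run from 250 bases before to 50 after the start, 5′ to 3′ on the gene's strand, and 7 of the 9 members matched, with 9 windows. Both strands were searched for the E-box CACGTG, the M-box core CATGTG, the AP-1 site TGANTCA, the cAMP response element TGACGTCA and the TATA box TATAAA, and matches are in capitals. In the Meg3 window at chr12:109540746-109541045 the cAMP response element starts 57 bases before the start, followed by 2 overlapping TATA box matches. In the Ccnl1 window at chr3:65958200-65958499 (minus strand) it starts 18 bases before the start.

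Meg3: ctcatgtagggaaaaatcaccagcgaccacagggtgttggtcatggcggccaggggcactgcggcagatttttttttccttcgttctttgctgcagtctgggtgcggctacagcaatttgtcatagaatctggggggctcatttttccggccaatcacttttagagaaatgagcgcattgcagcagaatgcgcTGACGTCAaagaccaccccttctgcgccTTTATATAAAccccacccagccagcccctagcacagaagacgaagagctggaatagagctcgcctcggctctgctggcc
Ccnl1: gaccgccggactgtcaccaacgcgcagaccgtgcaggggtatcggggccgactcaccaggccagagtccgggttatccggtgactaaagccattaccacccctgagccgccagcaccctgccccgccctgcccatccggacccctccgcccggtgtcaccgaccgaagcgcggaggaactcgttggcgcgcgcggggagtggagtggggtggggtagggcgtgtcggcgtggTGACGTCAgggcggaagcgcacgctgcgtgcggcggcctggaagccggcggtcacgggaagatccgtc

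Of all 32851 windows, 1.79% hold the cAMP response element and 13.6% the TATA box. The E-box, in 7.15% of windows, was in none of the members' 9. The M-box core, in 14.2%, was in the second Meg3 window and in the Mirg window, and the AP-1 site, in 7.81%, in the first Leng8 window. The second Meg3 window (chr12:109545148-109545447) and the Mirg window (chr12:109734731-109735030) lie inside the GENCODE genes given above. These matches describe letters only.

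The same RNAs carry microRNAs, which the deposited gene counts of long RNA do not measure as mature molecules. By position, 26 mature microRNAs lie inside Mirg, 6 inside Rian, 3 inside Meg3 and 2 inside H19, and none inside the other 5 genes. A pair from Meg3 and the pair from H19 are shown with the seed (bases 2 to 8) in capitals, to show what these host transcripts hold. No seed among the 4 is shared. Among all hosted microRNAs 1 seed occurred in more than 1, in miR-453 and miR-496a-5p of Mirg, which are also shown.

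mmu-miR-770-5p (Meg3): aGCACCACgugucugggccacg
mmu-miR-770-3p (Meg3): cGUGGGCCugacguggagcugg
mmu-miR-675-5p (H19): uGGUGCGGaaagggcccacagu
mmu-miR-675-3p (H19): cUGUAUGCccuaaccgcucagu
mmu-miR-453 (Mirg): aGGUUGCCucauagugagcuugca
mmu-miR-496a-5p (Mirg): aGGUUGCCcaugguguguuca

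At 14 days post injury, the contrast that chose the members, 5 of the 9 RNAs stood well above wild type in the Mutant and 4 did not. Meg3 was at 41.7, 22.6 and 44.9 CPM in the 3 Mutant libraries and at 5.09, 4.54 and 3.86 CPM in the wild type. Its neighbour Rian, in the same domain, was at 149, 125 and 183 CPM in the Mutant and 185, 141 and 133 CPM in the wild type. Thus the Meg3 groups lay far apart while the Rian groups overlapped.

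Neat1 was at 81.7, 40.3 and 85.3 CPM in the Mutant at 14 days against 11.7, 11.7 and 11.1 CPM. Leng8, at 16.5, 9.32 and 32.1 against 5.17, 3.14 and 4.06 CPM, and Ccnl1, at 23.3, 15.6 and 39.4 against 9.38, 7.52 and 6.09 CPM, also kept the groups apart. Miat rested on few reads, 25, 11 and 24 estimated counts in the Mutant against 6, 0 and 3. Mirg was at 2.82, 2.24 and 5.24 CPM against 1.46, 2.11 and 0.91 CPM, which leaves a narrow gap. Malat1 (78.4, 68.9 and 90.8 against 97.3, 96.1 and 81.3 CPM) and H19 (689, 1485 and 998 against 571, 2037 and 807 CPM) overlapped.

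On the scale of the fit, which adjusts library size by TMM, the log2 change at 14 days was 2.72 (SE 0.29) for Meg3, 2.28 (SE 0.34) for Neat1, 2.50 (SE 0.72) for Miat, 1.88 (SE 0.24) for Leng8 and 1.45 (SE 0.21) for Ccnl1. It was 0.86 (SE 0.44) for Mirg, -0.25 (SE 0.23) for Rian, -0.45 (SE 0.26) for Malat1 and -0.31 (SE 0.46) for H19. Just inside the set of 5 was Ccnl1 and just outside it Mirg. Across all 15852 genes tested in this contrast, 8.29% were called at an adjusted p under 0.05, from which nothing is read here, since the contrast chose the members. With the 2 groups at 14 days fitted alone, 0 genes were called (2064 at an unadjusted p under 0.05).

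The second Mutant library at 14 days had the lowest level of its group for every member but H19, which was highest there. It also had the most skeletal muscle marker RNA, 108400 CPM against 24930 and 8114 CPM. Without it the Meg3 change was 2.81 and the Neat1 change 2.40. Wild type libraries at 14 days held 9261, 89710 and 69140 CPM of muscle markers. With muscle as a covariate the Meg3 change was 2.66, and the Leng8 change 1.81. Adipocyte marker RNA was lower in the Mutant, between 2392 and 6105 CPM against between 6326 and 8725 CPM, and its part in the result was not tested.

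The 25 genes listed as intron-retaining nuclear transcripts had a median log2 change of 0.42 at 14 days beside -0.02 over all genes, given as a description like the members' values. Nktr, a splicing-associated cyclophilin, changed by 1.48 (SE 0.21) and Pnisr, a splicing regulator, by 1.25 (SE 0.19). The list's summed level was 1623, 1099 and 2279 CPM in the Mutant and 1255, 929 and 1040 CPM in the wild type, so the groups overlapped through the second Mutant library. The 25 nuclear speckle and SR splicing factors had a median change of 0.26, and Acin1 among them was at 1.44 (SE 0.19). Mitochondrially encoded mRNAs summed to between 42290 and 66400 CPM in the Mutant and between 29790 and 39430 CPM in the wild type.

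Within the Mutant, Meg3 went from 3.98, 2.64 and 3.69 CPM at 7 days to the levels above at 14 days, a log2 change of 3.47 (SE 0.30). Neat1 changed by 2.60 (SE 0.35) and Ccnl1 by 1.79 (SE 0.21) over the same interval, and Rian by 0.53 (SE 0.23). In wild type the same step was -0.59 (SE 0.28) for Meg3, 0.06 (SE 0.34) for Neat1 and -0.16 (SE 0.23) for Rian. These steps share the 14-day libraries with the contrast that chose the members and are likewise not tested.

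**Figure D1:**
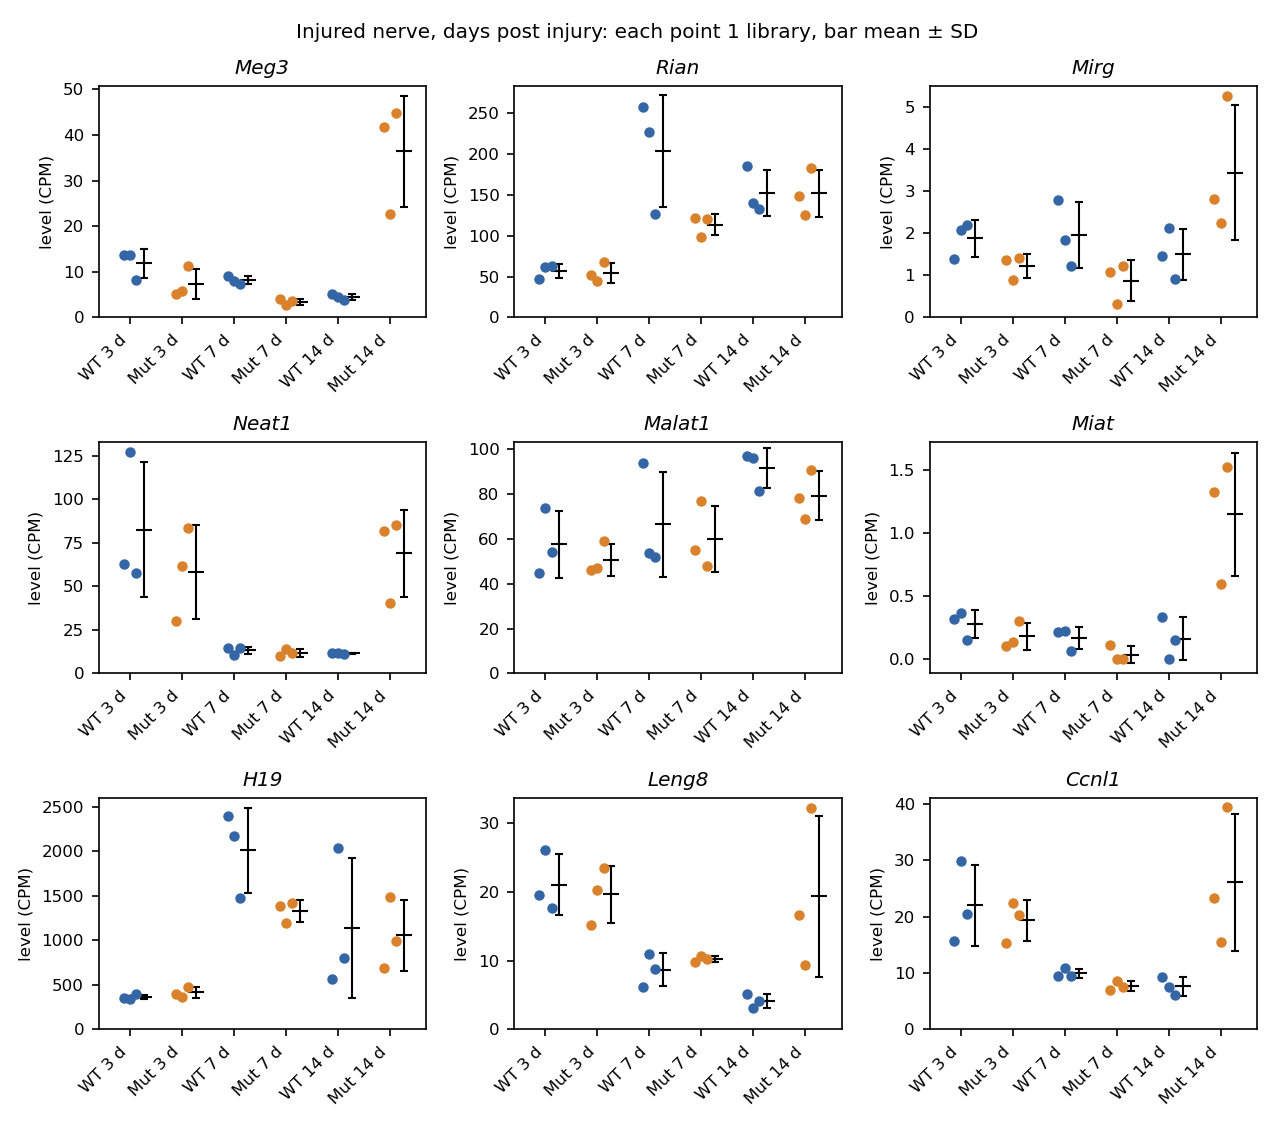
Level in CPM of each of the 9 RNAs in every library of the injured time course, by genotype and days post injury; each point is 1 library and the bar is the mean with its SD over 3 libraries. At 14 days the Mutant points of Meg3 lie between 22.6 and 44.9 CPM, above the wild type points near 4 to 5 CPM, while those of Rian overlap with wild type.

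Before 14 days the genotypes did not separate in this way. At 3 days, Meg3 was at 5.08, 5.74 and 11.2 CPM in the Mutant and 13.8, 13.6 and 8.18 CPM in wild type, and the groups overlapped. No member passed the test at 3 days (edgeR quasi-likelihood test, 0 of 9 with 1 at an unadjusted p under 0.05, 0 with DESeq2), beside 0% of all genes called (299 at an unadjusted p under 0.05).

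At 7 days no member passed the test between the genotypes in edgeR. Meg3 was at 3.98, 2.64 and 3.69 CPM in the Mutant against 9.17, 8.07 and 7.33 CPM in wild type, and Rian at 122, 98.5 and 120 CPM against 258, 227 and 127 CPM, with no overlap in either. Mirg, at 1.08, 0.31 and 1.23 CPM against 2.78, 1.84 and 1.22 CPM, overlapped (change -1.26, adjusted p = 0.301 with edgeR). The changes of Meg3 and Rian, -1.34 (SE 0.29, adjusted p = 0.132 with edgeR) and -0.93 (SE 0.23, adjusted p = 0.185 with edgeR), did not pass. In the edgeR fit 0 of 9 members and 0% of all genes were called, while 3 members and 2094 genes had an unadjusted p under 0.05. DESeq2 called Meg3 (adjusted p = 0.00425) and Rian (adjusted p = 0.0183) among 243 genes. Rian also passed edgeR without the third wild type library at 7 days (change -1.17, adjusted p = 0.0441).

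Between 3 and 7 days the members moved in opposite directions within wild type nerve. Rian and H19 rose while Neat1, Leng8 and Ccnl1 fell, 5 of 9 called beside 39.1% of all genes. Rian went from 47.6, 61.5 and 63.2 CPM to 258, 227 and 127 CPM, a log2 change of 2.01 (SE 0.24, edgeR adjusted p = 1.78e-05). H19 went from 354, 346 and 393 CPM to 2396, 2169 and 1477 CPM, a change of 2.64 (SE 0.49, edgeR adjusted p = 0.000641). For both RNAs every 7-day library lay above every 3-day library.

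Neat1 fell in wild type from 63.1, 127 and 57.8 CPM at 3 days to 14.4, 10.9 and 14.6 CPM at 7 days, a log2 change of -2.44 (SE 0.35, edgeR adjusted p = 7.72e-05). Leng8 fell by 1.13 (SE 0.23) and Ccnl1 by 0.97 (SE 0.21), each with no overlap between the days. Meg3 in wild type stood at 13.8, 13.6 and 8.18 CPM and then 9.17, 8.07 and 7.33 CPM, which overlap, and did not pass (change -0.36). So Meg3 and Rian, close neighbours on 1 strand, did not move together here.

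In the Mutant, 6 of 9 members passed between 3 and 7 days, beside 33.4% of all genes. Rian rose by 1.17 (SE 0.23) and H19 by 1.80 (SE 0.47). Neat1 fell by 2.17 (SE 0.34), Ccnl1 by 1.20 (SE 0.21), Meg3 by 0.97 (SE 0.29, edgeR adjusted p = 0.0169) and Leng8 by 0.81 (SE 0.23, edgeR adjusted p = 0.0131). The Meg3 call was lost without the third Mutant library at 3 days (change -0.56, adjusted p = 0.128) or the second at 7 days (-0.79, adjusted p = 0.0775), and the Leng8 call without the same 3-day library (adjusted p = 0.0619) or the first at 7 days (adjusted p = 0.0505). Without that last library Miat, at 0 counts in the other two, passed (adjusted p = 0.0491). Muscle marker RNA rose with time, from between 7.2 and 315.6 CPM to between 1395 and 3167 CPM, and with it as a covariate the edgeR adjusted p was 0.359 for Meg3, 0.296 for H19 and 0.353 for Leng8. No member differed between the genotypes in its change from 3 to 7 days by the interaction test of edgeR (0 of 9 and 0% of genes called, 1 member and 1020 genes at an unadjusted p under 0.05, and 0 members and 33 genes with DESeq2).

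Other genes of the imprinted domains and of the growth network they belong to rose along with Rian and H19. In wild type, Dlk1, a membrane protein made from the paternal allele beside Meg3, rose by 5.41 (SE 0.48, edgeR adjusted p = 1.6e-06) from 3 to 7 days. The growth factor Igf2 rose by 4.23 (SE 0.30), and in the Mutant these changes were 5.21 and 4.00. Among 19 tested genes of the wider imprinted network 10 rose and 1 fell in wild type, with a median of 0.90 beside 0.04 over all genes. They were led by Zim1 (3.94), Mest (4.74) and the cell cycle inhibitor Cdkn1c (3.21). Of all 15852 genes tested, 3081 rose in wild type and 2568 in the Mutant. Fibroblast markers rose in the same interval, 9 of 10 in each genotype, and muscle markers 6 of 14 in wild type and 10 of 14 in the Mutant (with single libraries left out, as few as 3 in each). The part of these cells in the rise was not tested.

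The fall of Neat1, Leng8 and Ccnl1 was shared by other splicing-linked transcripts. Between 3 and 7 days 11 of 25 listed intron-retaining transcripts fell in wild type and 1 rose (median -0.30), and 11 fell in the Mutant (median -0.39), where 19.6% and 17.2% of all genes fell. With the muscle covariate 9 fell in wild type and 6 in the Mutant. Prpf38b, a splicing factor, fell by 0.62 in wild type and 0.75 in the Mutant. Of the speckle and SR splicing factors 14 of 25 fell in wild type, such as Acin1 by 1.21 (SE 0.19) and Snrnp70, a U1 protein, by 0.98 (SE 0.15); with the muscle covariate the count was 6. In the Mutant 15 fell, and 9 without the second library at 7 days or 4 with the muscle covariate. In wild type, paraspeckle protein genes, partners of Neat1, fell in 9 of 20 and rose in 2, for example Rbm14 by 0.87 (SE 0.12). In the Mutant 10 of them fell and 2 rose, and without the second library at 7 days 6 fell and 1 rose.

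In the injury table, 4 of the 9 RNAs rose 3 days post injury, all of them imprinted, and none fell; 22.1% of all genes were called. H19 was at 283, 274, 286 and 349 CPM after injury and at 88.2, 51.1, 97.2 and 167 CPM in uninjured nerve, a rise of 1.56 (SE 0.28, edgeR adjusted p = 0.00635). Rian stood at 65.6, 134, 79.5 and 55.2 CPM against 38.4, 34.3, 40.1 and 37.8 CPM, a rise of 1.16 (SE 0.26, edgeR adjusted p = 0.015). Neither RNA overlapped between the groups.

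Meg3 was at 105, 165, 119 and 68.6 CPM after injury and at 35.3, 39.4, 73.9 and 56.7 CPM before, a rise of 1.16 (SE 0.31, edgeR adjusted p = 0.0261) with the groups overlapping at 1 library each. Mirg rose by 2.24 (SE 0.62, edgeR adjusted p = 0.0284) from between 0.34 and 2.09 CPM to between 3.30 and 12.3 CPM. The calls of Meg3 and Mirg were lost when single libraries were left out: both without uninjured 1 (adjusted p = 0.0667 and 0.0613), uninjured 2 (0.0768 and 0.0558) or injured 2 (0.0621 and 0.0988), Meg3 without injured 3 (0.051) or uninjured 4 (0.0584), and Mirg without uninjured 3 (0.071). The muscle covariate left H19 alone past the test, while the changes of the others were 1.11 (SE 0.40, edgeR adjusted p = 0.117) for Meg3, 1.15 (SE 0.35, edgeR adjusted p = 0.0782) for Rian and 2.78 (SE 0.82, edgeR adjusted p = 0.0692) for Mirg. Muscle marker RNA was between 28.1 and 2695 CPM in uninjured and between 6.8 and 33.9 CPM in injured nerve. Mitochondrial mRNAs rose with injury as well (10 of 13, mt-Nd1 by 1.98), as did 18 of 25 ribosomal protein genes (6 without uninjured 2 and 10 without uninjured 3, respectively, and 3 and 8 with the muscle covariate).

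Neat1 (change 0.39), Malat1 (-0.50), Miat (-0.45), Leng8 (-0.20) and Ccnl1 (0.43) did not pass at 3 days post injury, and listed intron-retaining transcripts were 2 higher and 2 lower of 25. Among the splicing factors 11 of 25 were higher, such as Srsf3 by 0.79 (SE 0.12) and Srsf2 by 0.72 (SE 0.12), and 4 lower. The counts fell to 6 higher without uninjured 1, 2 or 4 and to 3 with the muscle covariate. Of all 15245 genes tested with every library and no covariate, 1785 were higher and 1580 lower.

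**Figure D2:**
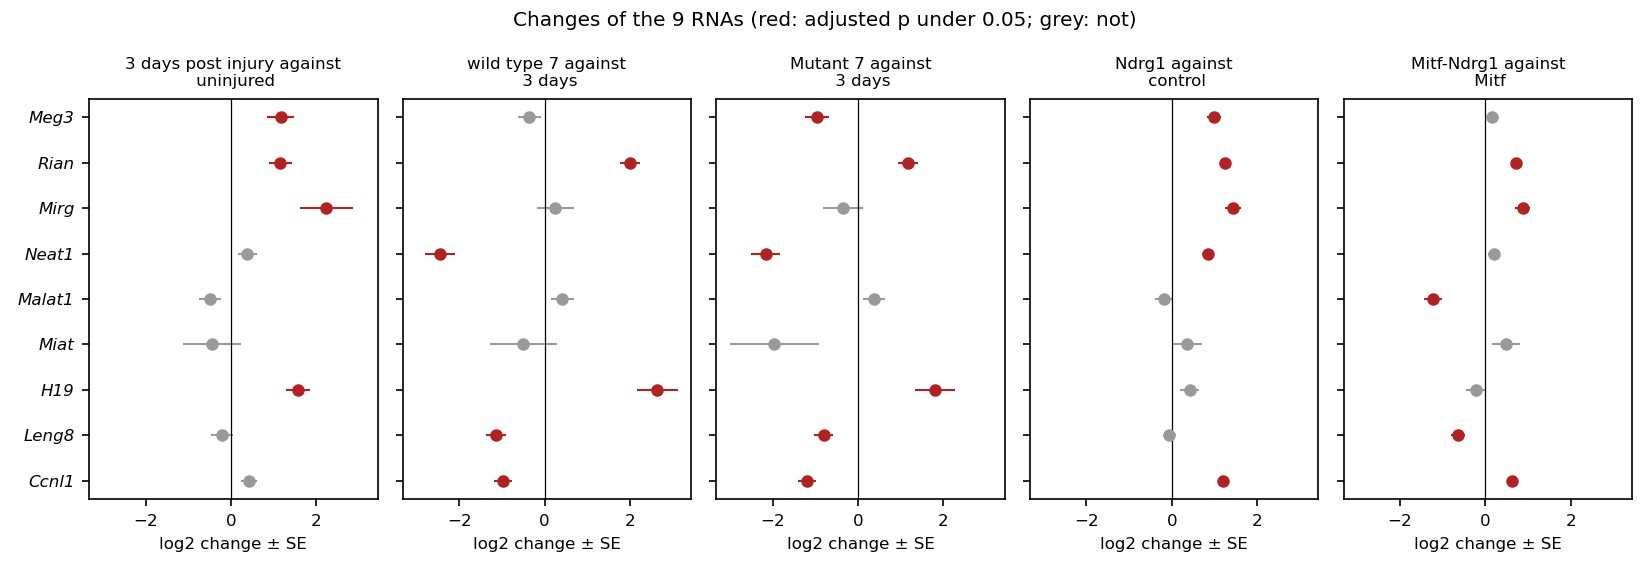
Log2 change with its SE of each of the 9 RNAs in 5 comparisons, the first-named group minus the second; red points passed an edgeR adjusted p under 0.05. Rian is to the right of 0 in all 5 panels, from 0.73 to 2.01, while Neat1 is at -2.44 and -2.17 between 3 and 7 days and at 0.85 in Ndrg1 against control.

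In nerves labelled Ndrg1, 5 members rose against control: Meg3, Rian, Mirg, Neat1 and Ccnl1; none fell. That is 5 of 9 beside 60.5% of all genes called, so the share of members called is near that of all genes. Rian was at 296, 292, 235, 279 and 253 CPM in Ndrg1 and between 86.5 and 138 CPM (median 96.4) in control, a rise of 1.24 (SE 0.10, edgeR adjusted p = 2.07e-10). Ccnl1 was at 105, 98.6, 128, 96.5 and 95.1 CPM against between 32.4 and 51.8 CPM (median 40.4), a rise of 1.21 (SE 0.11). In both, every Ndrg1 library lay above every control library.

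Neat1, at 1891, 1923, 1865, 1920 and 1942 CPM in Ndrg1, lay in a narrow band above the controls, which ran from 579 to 1426 CPM (median 896), and rose by 0.85 (SE 0.14). Meg3 rose by 0.99 (SE 0.16, edgeR adjusted p = 1.31e-05), from between 82.4 and 165 CPM to 285, 303, 137, 290 and 274 CPM, with the third Ndrg1 library inside the control range. Mirg rose by 1.44 (SE 0.18). Malat1 (-0.19), Miat (0.37), H19 (0.42) and Leng8 (-0.05) did not pass. H19 passed without control 4 (0.57, adjusted p = 0.0275), without Ndrg1 3 (0.54, adjusted p = 0.0461) and with the muscle covariate (0.50, adjusted p = 0.0365).

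Of 8 tested neighbours in the imprinted domains, 2 fell and 1 rose in the same nerves. Dlk1 fell by 2.34 (SE 0.26, edgeR adjusted p = 1.28e-07) and Igf2 by 1.68 (SE 0.26), while Begain, a gene beside Dlk1, rose by 2.02 (SE 0.20). Among other long non-coding RNAs 11 of 19 rose and 3 fell, with Pvt1 up by 3.23 (SE 0.24), the snoRNA host genes Zfas1 by 1.83 and Snhg1 by 1.89, and Dubr down by 1.40 (SE 0.10). Of the listed intron-retaining transcripts 17 of 25 rose and 2 fell, including Ccnl2, the paralogue of Ccnl1, by 1.16 (SE 0.12), and of the splicing factors 17 rose and 1 fell, with Tra2a by 1.16 (SE 0.10). Of all genes 30.8% rose and 29.7% fell.

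Other cell and RNA measures differed between these groups as well. Macrophage marker RNA was between 3241 and 4818 CPM in Ndrg1 and between 491 and 639 CPM in control, with 9 of 10 markers higher, and myelinating Schwann cell markers were between 45590 and 69130 CPM against between 154600 and 170900 CPM. Mitochondrial mRNAs summed to between 69430 and 166200 CPM against between 20450 and 28950 CPM, highest in the third Ndrg1 library. That library had the lowest Meg3, Rian, Mirg, Neat1, Miat, H19 and Leng8 of its group and the highest Ccnl1. The part of these cell and RNA measures in the rise of the members was not tested.

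Mitf-Ndrg1 against Mitf gave 5 of 9 members called, 3 higher and 2 lower, beside 57.6% of all genes. Rian rose by 0.73 (SE 0.10), Mirg by 0.87 (SE 0.18) and Ccnl1 by 0.63 (SE 0.11). Malat1 fell by 1.23 (SE 0.21, edgeR adjusted p = 2.56e-05), from between 246 and 457 CPM in Mitf (median 366) to 239, 170, 152, 145 and 185 CPM, without overlap. Leng8 fell by 0.65 (SE 0.16, edgeR adjusted p = 0.00171). Meg3 (0.17) and Neat1 (0.20) did not pass. Dlk1 fell by 2.79 (SE 0.27) and Igf2 by 2.48 (SE 0.27) here too. Macrophage marker RNA was between 3972 and 5281 CPM in Mitf-Ndrg1 and between 487 and 642 CPM in Mitf (9 of 10 markers higher), and myelinating Schwann cell markers were between 47040 and 79110 CPM against between 140400 and 176400 CPM (10 of 10 lower). Adipocyte markers were higher in 7 of 8 and mitochondrial mRNAs in 10 of 13, and the part of these in the members' changes was not tested. The listed intron-retaining transcripts were 4 higher and 7 lower of 25, with Ccnl2 up by 0.73 (SE 0.12) and Mat2a down by 0.29 (SE 0.07), and without Mitf-Ndrg1 1 the count was 2 higher and 6 lower. Of all 15910 genes tested with every library, 4720 were higher and 4445 lower.

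The test of the difference between these responses, the Mitf by Ndrg1 interaction, called 0 of 9 members with edgeR, beside 0.39% of all genes. At an unadjusted p under 0.05 were 7 members and 2213 of 15910 genes. The interaction was -0.82 (SE 0.23, adjusted p = 0.098 with edgeR) for Meg3, -1.04 (SE 0.28, adjusted p = 0.0959 with edgeR) for Malat1, -0.51 (SE 0.14) for Rian, -0.66 (SE 0.20) for Neat1 and -0.575 (SE 0.16) for Ccnl1. DESeq2 called these 5, with adjusted p from 0.0103 to 0.0336, among 387 genes. Leaving out control 3 brought 4 of them past edgeR's test, leaving out Mitf-Ndrg1 1 brought 3, and leaving out Ndrg1 3 brought Meg3 alone (adjusted p = 0.0239). Mitf-Ndrg1 against Ndrg1 called 0 of 9 members beside 1.47% of all genes, with 5 members and 2797 genes at an unadjusted p under 0.05. DESeq2 called Rian, Neat1 and Ccnl1 among 750 genes. Neat1 was at 1610, 1265, 1396, 1226 and 1383 CPM in Mitf-Ndrg1, below every Ndrg1 library (change -0.54, SE 0.15, edgeR adjusted p = 0.0588). It passed with the replicate block (adjusted p = 0.0484) and without Mitf-Ndrg1 1 (adjusted p = 0.0358). Rian and Ccnl1 passed without that library too (adjusted p = 0.049 and 0.0226), and Meg3 without Ndrg1 3 (adjusted p = 0.0396).

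Mitf against control called 0 of 9 members beside 0.00629% of all genes with edgeR. At an unadjusted p under 0.05 were 2 members and 994 genes, and DESeq2 called 0 members and 14 genes. All 9 members had a change above 0, with a median of 0.21 beside -0.01 over all genes. Some members correlated within groups, so the 9 signs are not separate results. Malat1 was 0.49 (SE 0.19, adjusted p = 0.669 with edgeR) and Meg3 0.37 (SE 0.15, adjusted p = 0.697 with edgeR).

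**Figure D3:**
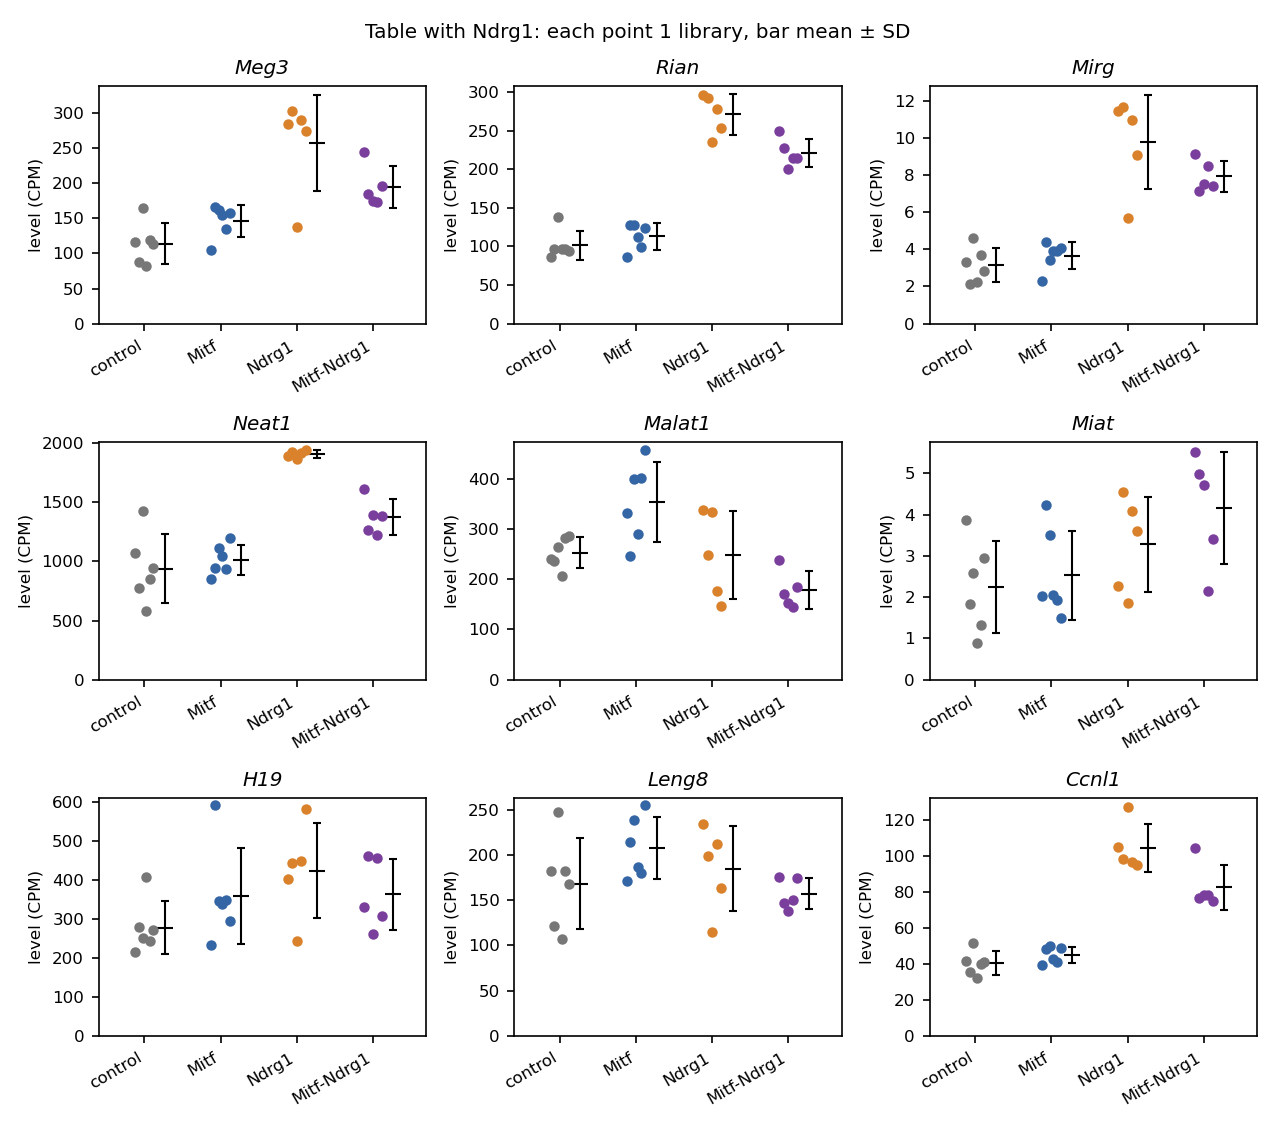
Level in CPM of each of the 9 RNAs in the control (6), Mitf (6), Ndrg1 (5) and Mitf-Ndrg1 (5) libraries; each point is 1 library and the bar is the mean with its SD. Neat1 lies between 1865 and 1942 CPM in Ndrg1, above all other groups, and Malat1 is lower in Mitf-Ndrg1 than in Mitf with no overlap.

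In Fig4 -/- nerve at P12, Malat1 was the only member called, 1 of the 8 that passed the low-count filter (Mirg did not), beside 3.03% of all genes. It was at 43.5, 63.3 and 92.9 CPM in Fig4 -/- and 120, 138 and 165 CPM in Fig4 +/+, a fall by 1.25 (SE 0.24, edgeR adjusted p = 0.0243) without overlap. The call was lost without Fig4 +/+ 1, 2 or 3 (adjusted p = 0.0692, 0.0824 and 0.0681), without Fig4 -/- 2 (0.14) and with the muscle covariate (0.148). The change itself was -1.29 with the covariate and from -1.34 to -1.12 in those fits with a library left out. Meg3 was at 4.68, 9.17 and 9.36 CPM against 8.12, 11.98 and 14.3 CPM and did not pass (-0.73). Igf2, the partner of H19, fell by 0.74 (SE 0.17, edgeR adjusted p = 0.0347). It was the only neighbour in the imprinted domains called lower, and that count was 0 with the muscle covariate. With a library left out the count ran from 0 to 1. Macrophage marker RNA was between 841 and 1128 CPM in Fig4 -/- and between 438 and 558 CPM in Fig4 +/+. Of its 10 markers 8 were higher (5 without Fig4 -/- 2 and 2 without Fig4 +/+ 1). Repair and non-myelinating Schwann cell markers were higher in 5 (2 without Fig4 -/- 2). Myelinating Schwann cell markers were lower in 3 and fibroblast markers in 2, each as few as 0 with a library left out. The part of these cells in the Malat1 result was not tested.

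No member passed in the remaining 4 comparisons, with edgeR or DESeq2, and none had an unadjusted p under 0.05 in the fits without a replicate block: Fig4 at P4 (0.00672% of all genes called), Mitf against DhhCre at P21 (0.0143%, or 2 genes, and 4 with the replicate block, Mirg and Miat below the filter), Mitf against Egr2Cre at P12 (0.0139%) and Egr2Cre Mitf against Mitf (0%, with 671 genes at an unadjusted p under 0.05 and 7 with DESeq2, and 0 genes called and 1178 at an unadjusted p under 0.05 with the replicate block). The block called 0 members in the DhhCre and Egr2Cre Mitf tables. At P4, 1 library of each genotype stood apart. Fig4 +/+ 1 had Meg3 at 79.7 CPM, Rian at 496 and H19 at 12590 CPM, and Fig4 -/- 3 had 46.9, 325 and 12180 CPM, while the other 4 libraries had Meg3 between 16.1 and 20.2 CPM. Muscle marker RNA in those libraries was 14430 and 11440 CPM, against between 146 and 1958 CPM in the other 4.

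Levels of the members differed more between tables than within most of them, and tables were made separately, so these are set side by side with no test. The count table with Ndrg1 lists 18003 genes, that with Egr2Cre Mitf 31232, and the others 51444 or 53278. CPM is scaled to the total over the genes listed, and the part of this in the levels was not tested. Mean Meg3 was lowest in DhhCre at P21, 3.25 ± 0.82 CPM (SD, n = 5), and highest in Ndrg1, 258 ± 68.4 CPM (SD, n = 5). Of the 21 steps between neighbours in the order of the 22 groups, 19 overlapped for Meg3 and for Rian. Rian ran from 25.4 ± 5.51 CPM (SD, n = 3) in Egr2Cre Mitf to 271 ± 26.2 CPM (SD, n = 5) in Ndrg1. Neat1 had a wide span, from 11.5 ± 0.38 CPM (SD, n = 3) in wild type at 14 days to 1908 ± 30.2 CPM (SD, n = 5) in Ndrg1, and 18 of its steps overlapped, as did 18 for H19 and for Leng8.

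H19 was highest in P4 nerve, 6314 ± 5097 CPM (SD, n = 3) in Fig4 -/-, and lowest in the uninjured Mitf nerves, 101 ± 48.2 CPM (SD, n = 4). Malat1 and Leng8 were both highest in the Mitf group beside control, at 354 ± 79.0 and 208 ± 34.1 CPM (SD, n = 6). The lowest Leng8 and Ccnl1 were in wild type nerve at 14 days, 4.12 ± 1.02 and 7.67 ± 1.65 CPM (SD, n = 3). Miat was low throughout, with group means from 0.04 to 7.43 CPM, and Mirg from 0.23 to 9.78 CPM, and all 21 steps overlapped for both. Malat1 overlapped in 20 steps and Ccnl1 in 19.

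Meg3 and Rian changed unequally between tables. The log2 ratio of their counts, which is not a ratio per length, had a median of 0.26 in control, 0.45 in Mitf nerves 3 days post injury and -0.24 in Egr2Cre at P12, all near 0. It was -2.76 in Fig4 +/+ at P12, -3.09 in DhhCre at P21 and -4.81 in wild type at 7 days. At 14 days it was -5.10 in wild type and -2.02 in the Mutant. The P12 nerves of Egr2Cre and of Fig4 +/+ thus differed in this ratio although their labelled age is the same, and whether that follows genotype or table cannot be told apart.

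**Figure D4:**
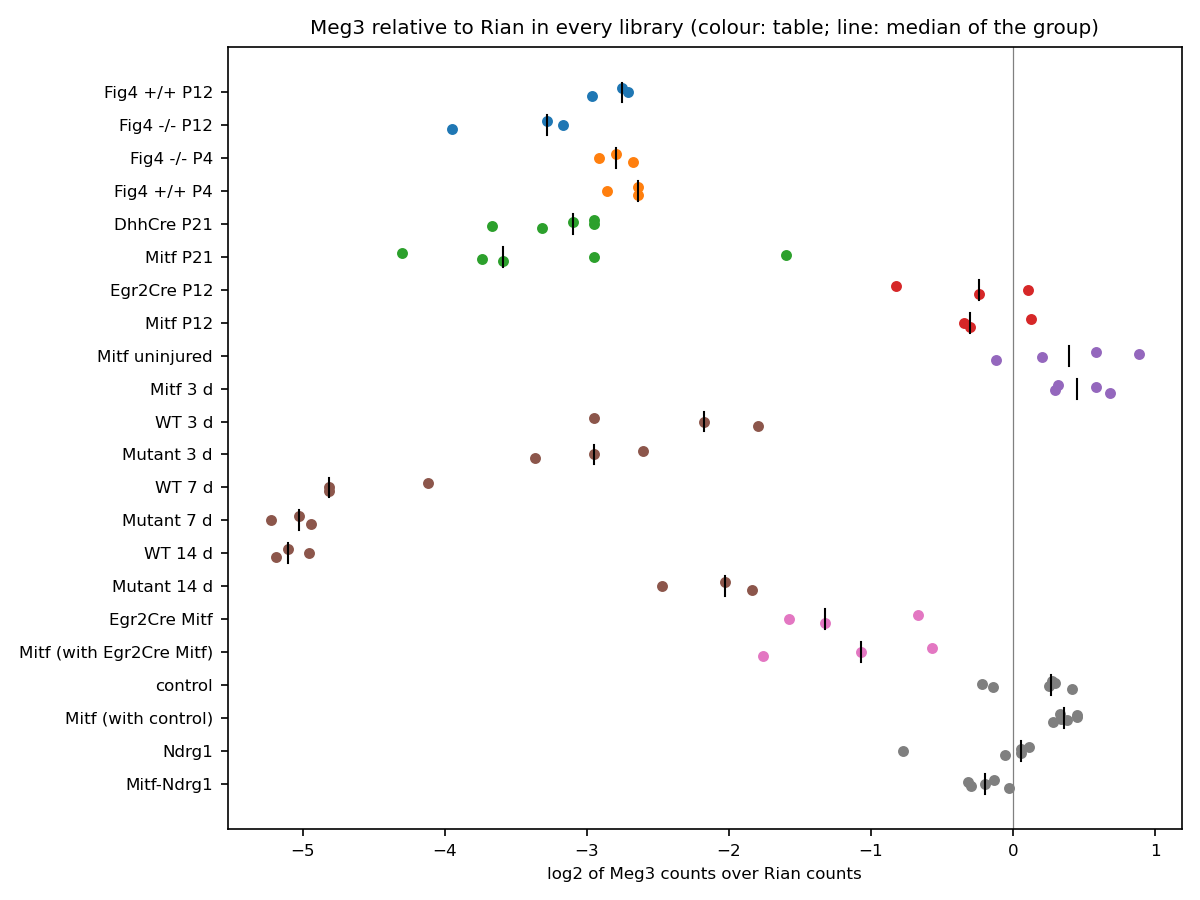
Log2 of the Meg3 count over the Rian count in each of the 82 libraries, by group, coloured by count table, with the group median as a line. Ratios lie near 0 in the table with Ndrg1 and between -5.22 and -1.79 in the time course at 3, 7 and 14 days.

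Within groups, the members fell into partly different sets. Over 82 libraries, after subtracting each group's mean of log2 CPM (pseudocount 2), Pearson's r was 0.85 between Rian and Mirg, 0.80 between Meg3 and Neat1 and 0.75 between Meg3 and Rian. Neat1 correlated with Ccnl1 (0.70), Leng8 (0.69) and Malat1 (0.65), while Rian did so with H19 (0.62) and less with Neat1 (0.44). H19 was near 0 with Leng8 (0.07) and Ccnl1 (0.06). These are descriptions, as the values of a library share its depth and tissue makeup. Without the 14-day libraries (n = 76) Meg3 with Neat1 was 0.79 and Rian with Mirg 0.86. Libraries far from the rest of their group, such as Fig4 +/+ 1 and Fig4 -/- 3 at P4, enter these values and were not left out.

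**Figure D5:**
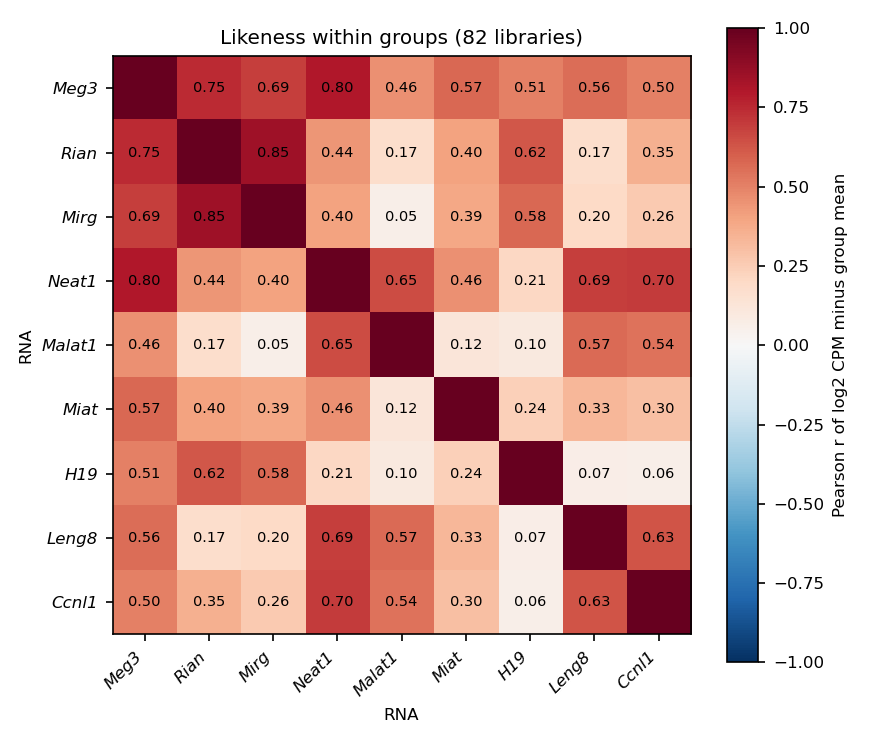
Pearson's r between each pair of the 9 RNAs over 82 libraries, computed on log2 CPM after subtracting the mean of each group. Rian and Mirg (0.85) and Meg3 and Neat1 (0.80) have the highest values, and H19 with Ccnl1 (0.06) is among the lowest.

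Across all libraries, with each table's mean subtracted and 11150 genes compared, the 5 genes most like Meg3 were Ankrd16 (r = 0.80), Fam193b (0.76), the cyclin gene Ccnl2 (0.76), Neat1 (0.76) and Lime1 (0.74). Ccnl1 ranked 12 (0.70), Rian 117 (0.55), Leng8 307 (0.48) and Malat1 4146 (0.20). Without the 14-day libraries Ankrd16 (0.81) and Ccnl2 (0.75) stayed among the first 5, beside Wsb1, Tctex1d2 and Polr2h, and Neat1 ranked 9, Ccnl1 131, Rian 379 and Leng8 2145 (r = 0.43). The differences between groups of a table enter these values.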

How the data were processed

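Total RNA of quick-frozen sciatic nerve was made into stranded mRNA libraries, per the labels' protocols. Per the submitters' processing notes, the authors made the deposited estimated counts with kallisto on mm10. The kallisto version, the annotation and how transcripts were summed are not given in the sources. The estimated counts were rounded before testing. CPM is the estimated count scaled to a library total of 1000000, and log2 CPM used a pseudocount of 2.

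Each table was fitted by itself with edgeR 4.0.16 (R 4.3.3): filterByExpr with a minimum count of 10, TMM scaling and the robust two-sided quasi-likelihood test, with Benjamini-Hochberg adjusted p under 0.05 over all genes of a comparison. All groups of a table shared 1 estimate of the spread. A log2 change is the first-named group less the other, with its SE taken as the absolute change over the square root of F. The fit was tested on simulated counts. The 16 tested comparisons counted the members past the threshold. Alternatives were RLE scaling, DESeq2 1.42.0, no filter, a block for the replicate number, a skeletal muscle covariate, the compared groups alone and each replicate left out. The members and the gene lists were chosen with earlier results of these data known. Genes named beyond the 9 were those with the smallest p of each list (up to 4 a comparison), domain neighbours, and the 5 genes most like Meg3. Replicates of a group differed by a chi-square per degree of freedom of at least 9.61, so none was counted as a repeat. Same-numbered libraries correlated above 0.1 in every pair of the DhhCre table (0.119 to 0.299) and of the Egr2Cre Mitf table (0.123 to 0.34), which meets the rule for pairing there, from the data and not from the labels. The values given are from the fit without the block, with the count under the block beside them for these 2 tables. Columns not used numbered 0. Positions and transcripts are from GENCODE vM21 on mm10, and promoters and microRNAs from RefSeq on GRCm38.p6.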

Additional observations from a re-analysis of the deposited data

Results flagged for a closer look

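In all, 10 values stood apart from the other libraries of their group, among 72 combinations of a member and a group of 4 to 6 libraries, and chance flags about 1 in 20. The fourth Mitf library at P21 was high in 4 members: Meg3 at 14.8 CPM (next 3.86), Neat1 at 84.5 CPM (next 35.2), Malat1 at 59.2 CPM (next 27.6) and Leng8 at 24.5 CPM (next 16.5). The third Ndrg1 library was low in Meg3, at 137 CPM where the next was at 274 CPM. The third control library was high in Rian, at 138 CPM against 96.8 CPM for the next. H19 was high in 3 libraries, at 349 CPM in the fourth injured Mitf library, 409 CPM in the fourth control and 592 CPM in the second Mitf library beside control. Ccnl1 was high in the first Mitf-Ndrg1 library, at 105 CPM against 78.4 CPM for the next.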

How the results depend on the processing

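The number of members called was recomputed under every alternative. RLE scaling, no low-count filter and the compared groups alone kept it within 1.5 times in every comparison where they were run. The skeletal muscle covariate changed it to 0 for Fig4 at P12, 1 for injury and 3 for Mutant 7 against 3 days. DESeq2 changed it to 2 for Mutant against wild type at 7 days, 3 for Mitf-Ndrg1 against Ndrg1 and 5 for the interaction. With single libraries left out it ran from 0 to 1 for Fig4 at P12, from 2 to 4 for injury, from 0 to 1 at 7 days, from 0 to 3 for Mitf-Ndrg1 against Ndrg1 and from 0 to 4 for the interaction. With the replicate block 1 member was called for Mitf-Ndrg1 against Ndrg1 and 3 for injury, where Mirg was lost (adjusted p = 0.116); no other call of a member changed with the block. Of the 26 member calls, 9 of 151 values under other settings and 17 of 214 with a library left out lost the call, and 0 changed sign. At 14 days H19 was the member whose change crossed 0, from -0.98 to 0.53, and Miat ranged from 1.98 to 3.41. Counts of all genes moved by over 1.5 times for Fig4 at P12 (435; 1131 unfiltered, 966 with DESeq2, 101 with muscle, 146 to 709 with a library left out), injury (3365; 1073 with muscle, from 1816 with a library left out), Mitf-Ndrg1 against Ndrg1 (234; 750 with DESeq2, 131 with muscle, 31 alone, 58 to 545 with a library left out) and the interaction (62; 387 with DESeq2, 104 with muscle, 20 to 252 with a library left out), and 7 days (0; 2 with RLE, 3 unfiltered, 1 with muscle, 243 with DESeq2, to 11 with a library left out). At 14 days, 1314 genes became 846 unfiltered, 856 with the block, 2342 with DESeq2 and 0 with the 2 groups alone (2064 at an unadjusted p under 0.05), and with a library left out from 139 (without the third wild type library) to 4959 (without the second Mutant library). Where 2 or fewer genes were called, DESeq2 called 7 (Fig4 at P4), 10 (DhhCre), 12 (Egr2Cre) and 14 (Mitf against control). Group means under TMM moved by more than 1 SD in 8 of 198 cases. Counts of Mirg and Miat were low, and differences in them were hard to detect at this depth.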
